A study of Mus musculus with 4 samples.

Results

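The machinery with which the endoplasmic reticulum (ER) imports, folds and checks secreted and membrane proteins was examined in mouse lung endothelial cells (ECs) after unilateral pneumonectomy (PNX). It was represented by 34 genes, taken by symbol from the 24063 gene symbols in the tables: luminal chaperones, protein disulfide isomerases, sensors and transcription factors of the unfolded protein response (UPR), degradation factors, the translocon and the receptors that retrieve chaperones. RNA was sequenced in 4 libraries of lung ECs selected with anti-CD31 magnetic beads from 8-week-old C57BL6J mice labelled male. The 2 sham libraries came from mice that had a thoracotomy without removal of lung, the 2 PNX libraries came from the lungs that remained on day 7 after removal of the left lung, and each library pooled the cells of 2 mice. The labels list no engineered allele and no other agent for either group. The comparison asked how RNA of the ER folding machinery differed between post-PNX and sham-operated lung ECs. With 2 pools per group, the p-values below measure the spread between these libraries only, which was narrow (common biological coefficient of variation 0.0142) and may be in part technical.

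Proteins destined for secretion or for membranes enter the ER through the Sec61 channel, are glycosylated, and fold with the help of HSP70 and HSP90 family chaperones, of lectins that read the sugar chains and of isomerases that form disulfide bonds. When unfolded protein accumulates, the sensors IRE1, PERK and ATF6 start the UPR, in which XBP1, ATF4 and cleaved ATF6 switch on genes for chaperones, degradation and redox balance, and CHOP is induced when stress persists. The same machinery expands when a cell takes on a larger secretory output, and in ECs the cargo includes basement membrane, collagens, von Willebrand factor and surface receptors.

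UPR target genes are known for short promoter motifs, and these are printed because the chaperones that carry them can be set beside the values that follow. Windows from 250 bases before to 50 bases after the transcript start, from RefSeq for GRCm38 (mm10), were at hand for 28 of the 34 genes. Those without a window were Kdelr2, Hyou1, Sec61a1, Ssr2, Manf and Atf6. The ER stress response element (ERSE), bound by the factor NF-Y together with ATF6 or XBP1, was searched on both strands as CCAAT, 9 bases of any kind, and CCACG. It was present in 39 of 32851 windows over all genes (0.119%), which belonged to 37 of 27025 genes. Of the 28 ER genes with a window, 7 held it (25.0%). The ER set includes known UPR target genes, so a higher share there is no separate result. The matches are given 5′ to 3′ in the direction of the motif, with the CCAAT and CCACG blocks in capitals.
Hspa5, chr2:34772025-34772043, 65 bases upstream of the start: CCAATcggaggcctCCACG
Hsp90b1, chr10:86705638-86705656, 212 bases upstream: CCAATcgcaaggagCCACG
Hsp90b1, chr10:86705533-86705551, 107 bases upstream and on the strand opposite to the gene: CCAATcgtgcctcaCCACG
Calr, chr8:84847075-84847093, 162 bases upstream and on the opposite strand: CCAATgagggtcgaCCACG
Canx, chr11:50325800-50325818, 145 bases upstream: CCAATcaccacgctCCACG
Pdia6, chr12:17266491-17266509, 98 bases upstream: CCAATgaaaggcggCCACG
Dnajc3, chr14:118937827-118937845, 105 bases upstream: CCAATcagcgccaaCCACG
Creld2, chr15:88819520-88819538, 126 bases upstream and on the opposite strand: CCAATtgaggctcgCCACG

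The promoter of Hspa5, which encodes BiP, is the textbook case and is shown at greater length, as the 150 bases that end just before its transcript start (chr2:34771940-34772089, plus strand). The capitals mark 2 CCAAT blocks and 1 CCACG block, of which the second CCAAT and the CCACG form the match above.
Hspa5 promoter: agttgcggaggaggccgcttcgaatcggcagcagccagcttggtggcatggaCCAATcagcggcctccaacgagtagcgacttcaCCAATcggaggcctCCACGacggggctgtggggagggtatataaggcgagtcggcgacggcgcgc

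A second form of the element, ERSE-II, was searched as ATTGG, 1 base and CCACG, and was found in 12 windows (0.0365%), 2 of them of ER genes. An 8-base UPR element known to bind XBP1 and ATF6 was found in 222 windows (0.676%), 1 of them of an ER gene. Capitals mark the fixed bases.
Herpud1, ERSE-II, chr8:94386377-94386387, 52 bases upstream: ATTGGgCCACG
Dnajb11, ERSE-II, chr16:22857852-22857862, starting 8 bases after the transcript start: ATTGGcCCACG
Kdelr3, UPR element, chr15:79516378-79516385, 30 bases upstream and on the opposite strand: TGACGTGG
A match describes these letters only, and binding was not measured.

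Library totals, counting for each gene the transcript with the most reads, were 50952879 and 45261208 in sham and 46783725 and 41367438 in PNX. Values are given as normalized counts, that is counts scaled to a common library size, and as FPKM, which divides by transcript length and is used to compare levels between genes. The libraries held the EC markers Pecam1 (374 ± 1.12 FPKM in sham and 374 ± 0.553 in PNX, SD, n = 2 libraries each) and Cdh5 (376 ± 2.17 and 324 ± 2.5 FPKM), but they also held RNA of other lung cells. Sftpc, the surfactant protein C gene of alveolar type 2 cells, was at 2890 ± 5.12 FPKM in sham and 1890 ± 12.4 in PNX, and Ptprc, which encodes CD45, was at 28.2 ± 0.0974 and 28.3 ± 0.371 FPKM, although the study's methods describe the isolated ECs as CD45-negative by FACS. The labelled sex did not match the RNA, since each of 44 chromosome Y genes had 0 counts and Xist had 31872 to 33792 normalized counts in every library.

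Most of the ER genes were higher after PNX, and of the 7 that fell, 4 were UPR regulators. All 34 genes passed the filter on low counts, with 380 to 63278 reads per gene and library. Their summed normalized counts were 369246 and 370255 in sham and 480114 and 484637 in PNX, a 1.3-fold difference that took them from 0.801% and 0.803% to 1.04% and 1.05% of all counts. In bulk RNA, fewer cells of a type and less RNA per cell cannot be told apart. Differences were tested with the quasi-likelihood test of edgeR, with p-values adjusted by Benjamini-Hochberg over all 16208 genes tested, and a gene was called at an adjusted p under 0.01. By this rule 25 of the 34 ER genes rose and 7 fell, against 29.3% of all genes called higher and 27.8% called lower. Their median log2 fold change (PNX over sham) was 0.32, against 0.00 over all genes, and the range was -0.52 to 1.34. Only Kdelr3 and Sdf2l1 also passed a log2 fold change of 1, a mark that 5.90% of all genes passed upward. No ER gene passed it downward, and few genes did so at all (269 of 16208). Both PNX libraries lay above both sham libraries for 26 ER genes, against 40.8% of all genes, and below them for the other 8, against 40.5%. The spread within a group was small, with a median SD of 1.02% of the mean and a largest of 6.29%.

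**Figure D1:**
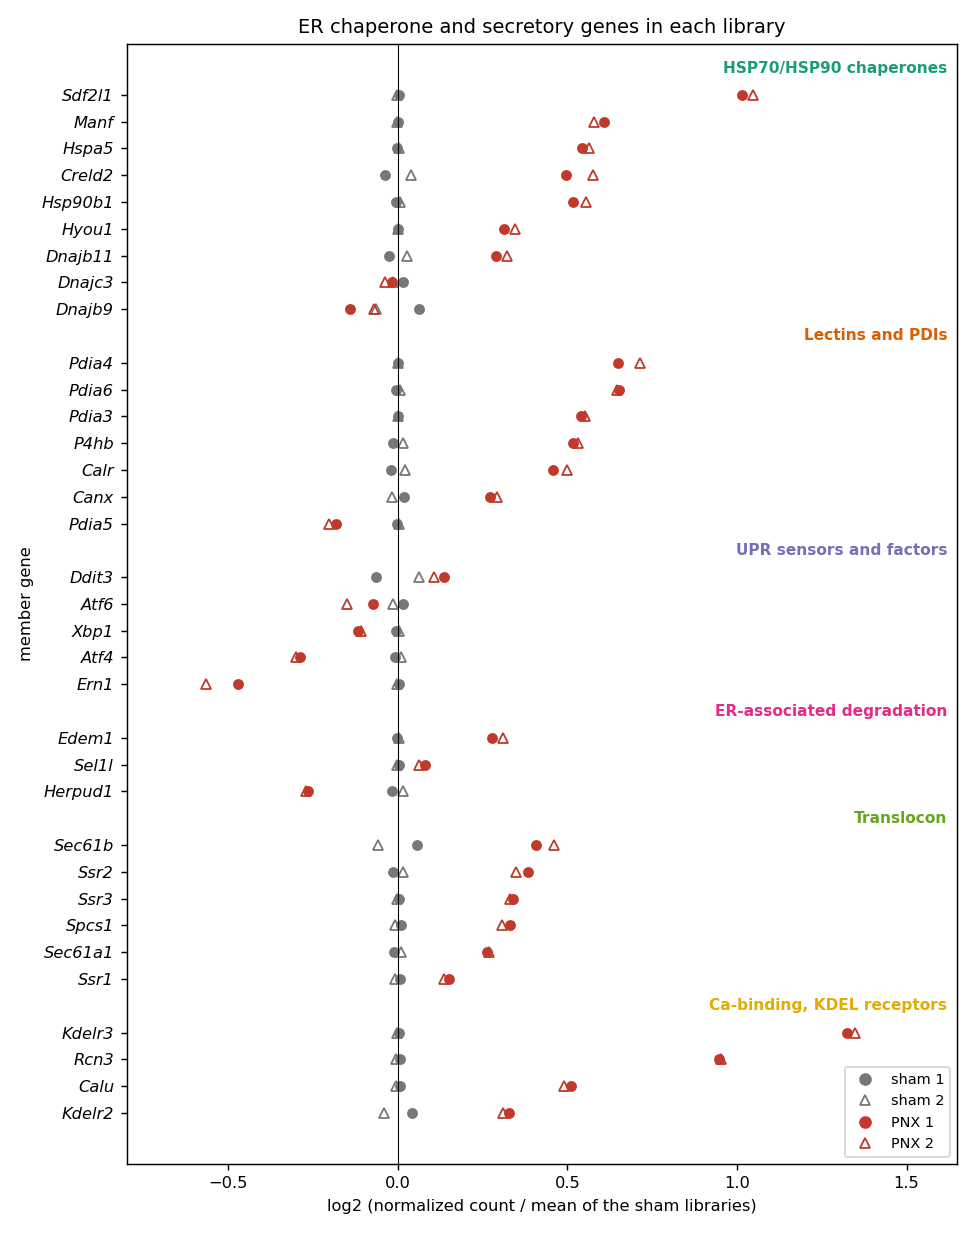
Each row is an ER gene and the horizontal axis is the log2 of its normalized count divided by the mean of the sham libraries, with grey symbols for sham, red for PNX, circles for replicate 1 and triangles for replicate 2. The red symbols of 26 genes lie to the right of the grey ones, with Kdelr3 and Sdf2l1 farthest out, and Ern1 lies farthest to the left.

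Scaling bore on the sign of the smallest differences. Of 12 EC marker genes 10 were called lower, and when the libraries were scaled to these 12 instead of to the bulk of genes, the median of all genes moved up by 0.21 on the log2 scale. Calls over all genes then changed from 4745 higher and 4513 lower to 8540 higher and 1797 lower, that is from 51.3% to 82.6% of calls in the upward direction. Under this scaling 29 ER genes were called higher and 2 lower, with a median of 0.53. With scaling to the bulk of genes, the ER genes stood 0.32 above the median of all genes. Rescaling shifts all genes by about the same amount, so this distance could not change and is no separate check. Dnajb9, Dnajc3, Pdia5, Xbp1 and Atf6 changed sign, and the other 29 genes kept theirs.

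**Figure D2:**
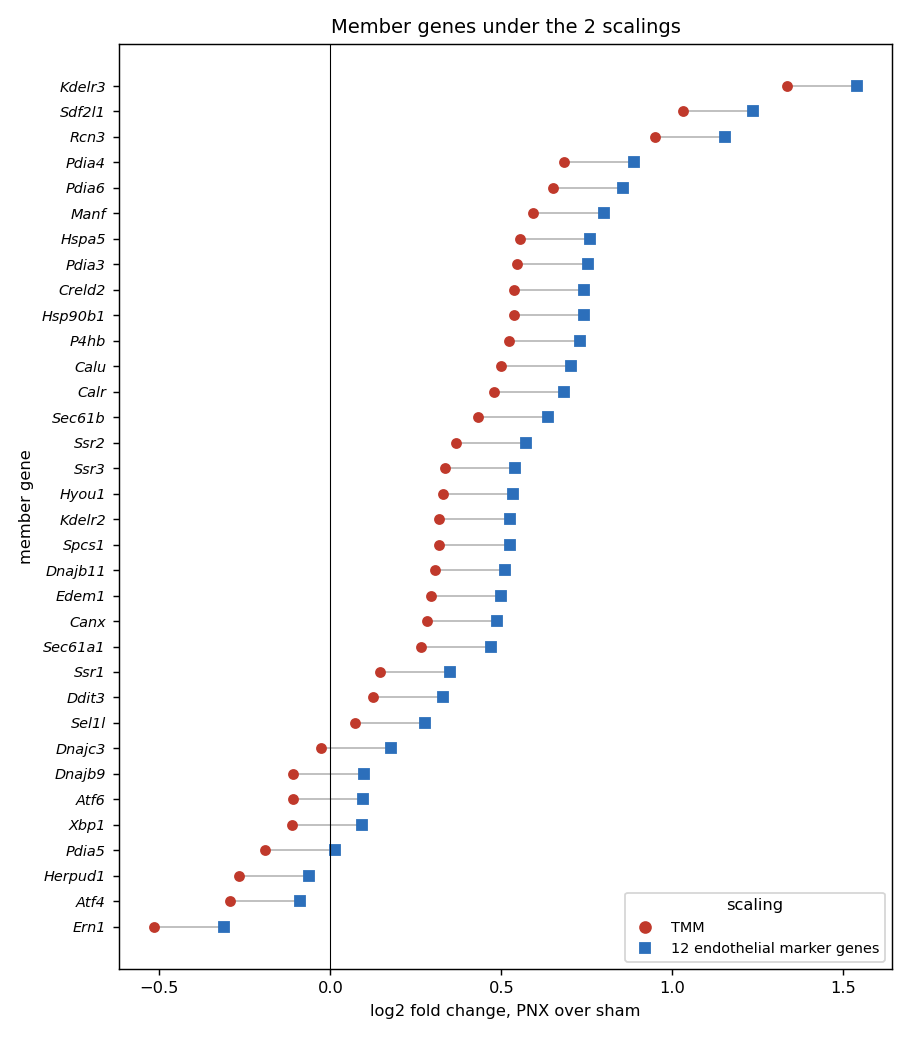
Log2 fold change (PNX over sham) of each ER gene with the libraries scaled by TMM (red circles) or to 12 EC marker genes (blue squares). Every gene moves to the right by about the same amount, and 5 genes between Dnajc3 and Pdia5 cross 0.

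The HSP70 and HSP90 chaperones of the ER lumen and their cofactors included several of the most abundant ER genes. Of 9 genes, 7 rose, 1 fell and 1 was not called, and the median log2 fold change was 0.54. Hspa5, the gene of BiP, the HSP70 of the ER that binds nascent chains and holds the UPR sensors inactive, lies on chromosome 2 at 34772090 to 34776529. It had 38853 and 38993 normalized counts in sham and 56718 and 57555 in PNX. The groups were far apart, and the log2 fold change was 0.55 (SE 0.017, adjusted p = 9.6e-38). In FPKM it rose from 202 ± 0.589 to 298 ± 2.56 (SD, n = 2). Hsp90b1, which encodes GRP94, the HSP90 of the ER and a chaperone of integrins and Toll-like receptors, had 43281 and 43588 normalized counts in sham and 62179 and 63772 in PNX. Its log2 fold change was 0.54 (SE 0.017, adjusted p = 6.2e-37). Both genes hold an ERSE close to the start, and their folds differed by less than the sum of their standard errors.

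The cofactors of BiP did not all behave like BiP. Sdf2l1, a small luminal protein that works with the ER DnaJ proteins, had 903 and 899 normalized counts in sham and 1821 and 1862 in PNX, which made it the strongest riser of this group (log2 fold change 1.03, SE 0.045, adjusted p = 2.2e-29). Manf, a secreted neurotrophic factor that binds BiP in the ER, had 3808 and 3801 normalized counts in sham and 5796 and 5680 in PNX (log2 fold change 0.59, SE 0.027, adjusted p = 1.8e-28). Creld2, a stress-induced ER protein with EGF-like repeats, had 2085 and 2196 in sham and 3020 and 3190 in PNX (log2 fold change 0.54, SE 0.035, adjusted p = 4.0e-21). These 3 genes thus had log2 fold changes of 0.54 or more, at the level of BiP or above. Hyou1, the large HSP70-like protein that exchanges nucleotide on BiP, had 7015 normalized counts in either sham library and 8714 and 8911 in PNX (log2 fold change 0.33, SE 0.023, adjusted p = 1.2e-19). Dnajb11, the DnaJ partner ERdj3, had 5263 and 5455 in sham and 6549 and 6701 in PNX (log2 fold change 0.31, SE 0.026, adjusted p = 1.6e-16). The counts of Hyou1 and Dnajb11 did not overlap between groups, and their log2 fold changes were below that of BiP.

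The other DnaJ partners were flat or slightly lower. Dnajc3, which encodes p58IPK, a BiP cofactor and inhibitor of PERK, had 12820 and 12567 normalized counts in sham and 12534 and 12359 in PNX. Its log2 fold change was -0.03 (SE 0.021, adjusted p = 0.226), and with scaling to EC markers it was 0.18 and called, so no direction is given for it. Dnajb9, which encodes ERdj4, a repressor of IRE1, had 4567 and 4178 in sham and 3965 and 4165 in PNX. It was called lower at -0.11 (SE 0.031, adjusted p = 0.00182), although sham 2 and PNX 2 differed by a few counts only. The call of Dnajb9 was lost without sham 1 (-0.04, adjusted p = 0.31) or without PNX 1 (-0.07, adjusted p = 0.0975) with DESeq2 (adjusted p = 0.05) and with counts summed over the transcripts of a symbol (adjusted p = 0.025), and the sign turned to 0.10 with scaling to EC markers. Dnajc3 holds an ERSE like that of Hspa5, and the window of Dnajb9 held none of the 3 motifs.

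The lectin chaperones and protein disulfide isomerases rose to a similar extent, with 6 of 7 genes higher, 1 lower and a median log2 fold change of 0.52. Calr, calreticulin, the soluble lectin that also stores calcium, had the highest FPKM of the 34 genes, 230 ± 4.54 in sham and 322 ± 5.88 in PNX. It had 32472 and 33374 normalized counts in sham and 45203 and 46501 in PNX (log2 fold change 0.48, SE 0.018, adjusted p = 6.0e-33). Canx, calnexin, the membrane-bound partner with the same sugar specificity, had 20857 and 20336 in sham and 24878 and 25209 in PNX (log2 fold change 0.28, SE 0.019, adjusted p = 1.2e-20). The soluble lectin stood 0.20 above the membrane-bound one on the log2 scale, a difference that was not tested itself.

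Among the isomerases, each of the more abundant enzymes rose. Pdia3, ERp57, which acts on glycoproteins held by calreticulin and calnexin, had 29624 and 29619 normalized counts in sham and 43074 and 43448 in PNX (log2 fold change 0.55, SE 0.017, adjusted p = 9.5e-37). P4hb, the classical protein disulfide isomerase and also the beta subunit of collagen prolyl 4-hydroxylase, had 25068 and 25588 in sham and 36202 and 36570 in PNX (log2 fold change 0.52, SE 0.018, adjusted p = 6.4e-35). Pdia6, an isomerase that works with BiP, had 12358 and 12476 in sham and 19531 and 19424 in PNX (log2 fold change 0.65, SE 0.020, adjusted p = 1.1e-37). Each of these had both PNX libraries above both sham libraries, as had 40.8% of all genes. Pdia4, ERp72, had 6640 and 6639 normalized counts in sham and 10415 and 10894 in PNX, the largest rise of this group (log2 fold change 0.68, SE 0.023, adjusted p = 6.1e-35). Pdia5 went the other way, with 1976 and 1985 in sham and 1745 and 1719 in PNX (log2 fold change -0.19, SE 0.039, adjusted p = 1.5e-05), but its value was 0.01 and not called with scaling to EC markers. In FPKM, Pdia5 was also the lowest of the 7 genes, at 14.9 ± 0.0528 in sham.

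The calls of the sensors and transcription factors of the UPR turned on the scaling. Of 5 genes none was called higher, 4 were called lower and 1 was not called, with a median log2 fold change of -0.11. Scaling to EC markers gave 3 higher, 2 lower and a median of 0.09. That scaling called 8540 of all 16208 genes tested higher and 1797 lower, with a median of 0.21. The median of these UPR regulators was below that of all 34 ER genes, an order that a shift of all genes by rescaling cannot change. Ern1, the gene of the sensor and RNase IRE1 alpha, on chromosome 11 at 106397620 to 106487796, had 2087 and 2076 normalized counts in sham and 1501 and 1405 in PNX. This was the largest fall among the ER genes (log2 fold change -0.52, SE 0.040, adjusted p = 1.2e-17). Atf4, the transcription factor translated when PERK or its relatives phosphorylate eIF2 alpha, had 14838 and 15023 in sham and 12230 and 12132 in PNX (log2 fold change -0.29, SE 0.020, adjusted p = 6.3e-20). With scaling to EC markers these were the only ER genes called lower, at the smaller values of -0.31 for Ern1 and -0.09 for Atf4.

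The remaining UPR regulators had smaller differences. Xbp1, whose mRNA is cut by IRE1 to encode the active factor, had 12098 and 12184 normalized counts in sham and 11188 and 11260 in PNX, and was called lower at -0.11 (SE 0.021, adjusted p = 3.1e-06) but called higher at 0.09 with scaling to EC markers. Atf6, the membrane-tethered factor that is released by cleavage in the Golgi, had 5534 and 5428 in sham and 5209 and 4942 in PNX. It was called lower at -0.11 (SE 0.027, adjusted p = 2.9e-04), and the call was lost without PNX 2 (-0.07, adjusted p = 0.0553) and with DESeq2 (adjusted p = 0.0118), whereas with scaling to EC markers it was called higher at 0.10 (adjusted p = 0.00441). Ddit3, which encodes CHOP, had 965 and 1053 in sham and 1108 and 1086 in PNX, a log2 fold change of 0.12 that was not called (SE 0.051, adjusted p = 0.0269), although it was called without sham 2 (0.19, adjusted p = 0.006) and with scaling to EC markers (0.33, adjusted p = 9.97e-07). RNA level alone does not measure IRE1 activity, ATF6 cleavage or ATF4 translation.

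**Figure D3:**
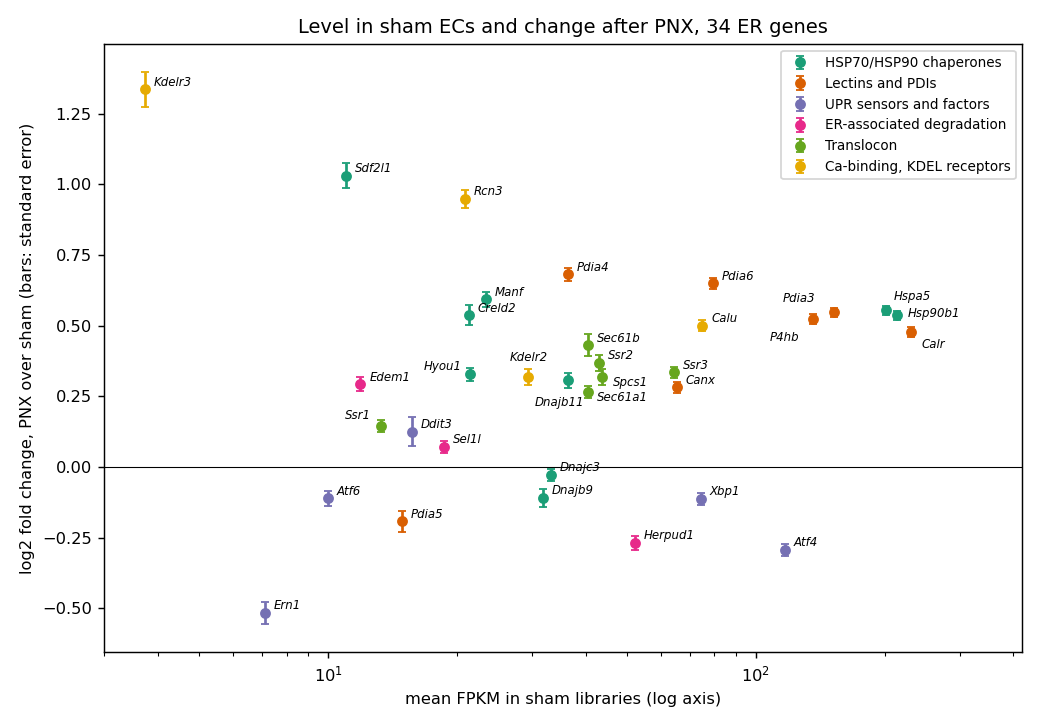
Each point is an ER gene, with its mean FPKM in sham on a log axis and its log2 fold change (PNX over sham) on the vertical axis, and bars give the standard error of the fit. The abundant chaperones Calr, Hsp90b1, Hspa5, Pdia3 and P4hb lie between 0.48 and 0.55, while Kdelr3 is the lowest in sham FPKM and the highest in fold change.

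The genes of ER-associated degradation (ERAD), which returns misfolded proteins to the proteasome, moved in different directions. Herpud1, a membrane protein that gathers the HRD1 ligase complex and turns over quickly, had 7113 and 7276 normalized counts in sham and 5991 and 5960 in PNX. It fell (log2 fold change -0.27, SE 0.024, adjusted p = 5.6e-15), and the call was lost with scaling to EC markers, where it was -0.06 (adjusted p = 0.0265). Edem1, a mannosidase-like lectin that selects glycoproteins for degradation, had 5127 and 5143 in sham and 6219 and 6368 in PNX (log2 fold change 0.29, SE 0.025, adjusted p = 8.5e-16). Sel1l, the adaptor of the HRD1 ligase, had 8683 and 8656 in sham and 9157 and 9053 in PNX. It was called higher at 0.07 (SE 0.022, adjusted p = 0.00414), and this call was lost when any single library was left out (sham 1, sham 2, PNX 1 or PNX 2, adjusted p from 0.0126 to 0.0563, log2 fold change 0.06 to 0.08) and with DESeq2 (adjusted p = 0.051). Of the pair with an ERSE-II, Herpud1 was lower and Dnajb11 higher.

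Of the import machinery, all 6 genes of the set were called higher, with a median log2 fold change of 0.33, below that of the chaperones. Sec61a1, the pore of the translocon, had 8984 and 9117 normalized counts in sham and 10852 and 10900 in PNX (log2 fold change 0.27, SE 0.022, adjusted p = 6.7e-17). Sec61b, its small tail-anchored subunit, had 1717 and 1586 in sham and 2192 and 2270 in PNX (log2 fold change 0.43, SE 0.040, adjusted p = 7.0e-15). The 3 genes of the translocon-associated complex Ssr1, Ssr2 and Ssr3, which helps signal sequences engage the channel, had log2 fold changes of 0.14 (SE 0.022), 0.37 (SE 0.028) and 0.33 (SE 0.020). Ssr1 was the weakest of the group, with 9178 and 9084 normalized counts in sham and 10144 and 10035 in PNX (adjusted p = 4.4e-08). Spcs1, a small subunit of signal peptidase, had 3256 and 3214 in sham and 4069 and 3999 in PNX (log2 fold change 0.32, SE 0.030, adjusted p = 1.2e-14). In each of the 6 genes both PNX libraries lay above both sham libraries, as they did in 40.8% of all genes.

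The luminal calcium-binding proteins and the KDEL receptors had the highest median log2 fold change of the ER groups, 0.72, with all 4 genes higher. Kdelr3, 1 of 3 related Golgi receptors that bind the KDEL tail of escaped chaperones and return them to the ER, lies on chromosome 15 at 79516408 to 79527739. It had 389 and 387 normalized counts in sham and 971 and 988 in PNX, the largest fold change of the 34 genes (2.52-fold, log2 1.34, SE 0.063, adjusted p = 9.3e-28). Its level was the lowest, at 3.73 ± 0.0073 FPKM in sham and 9.47 ± 0.102 in PNX. The paralog Kdelr2 was more abundant, at 29.3 ± 1.19 FPKM in sham and 36.8 ± 0.394 in PNX, and rose less, from 4107 and 3876 to 5013 and 4950 normalized counts (log2 fold change 0.32, SE 0.028, adjusted p = 2.5e-15).

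Both calcium-binding proteins of the CREC family rose. Rcn3, reticulocalbin 3, which is known to be needed for lung maturation and to assist collagen production, had 2244 and 2224 normalized counts in sham and 4305 and 4322 in PNX (log2 fold change 0.95, SE 0.031, adjusted p = 7.3e-36). It stood just under the fold mark of 1. Calu, calumenin, had 17903 and 17770 in sham and 25398 and 25026 in PNX (log2 fold change 0.50, SE 0.019, adjusted p = 8.0e-33).

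Set against the motifs, the 7 genes with an ERSE had 6 risers, no faller and a median log2 fold change of 0.54. The 21 genes with a window but no ERSE had 14 risers, 6 fallers and a median of 0.31. Of these fallers only Atf4 and Ern1 stayed called lower with scaling to EC markers. The difference between genes with and without an ERSE was not tested. All 7 genes with an ERSE were chaperones, cofactors, lectins or isomerases, whereas the 21 also held UPR regulators, degradation and import genes. In the chaperone and isomerase groups, genes with a window but no ERSE ran from -0.19 (Pdia5) to 1.03 (Sdf2l1). Between these lay Pdia4 at 0.68, Pdia3 at 0.55, P4hb at 0.52, Dnajb11 at 0.31 and Dnajb9 at -0.11. Outside the ER set, the 13 tested genes with an ERSE, among them Derl3, Syvn1, Calr4 and Alg12, had 4 risers and 2 fallers with a median of 0.02. Over all genes, 29.3% were called higher and 27.8% lower. The strongest risers Sdf2l1 and Rcn3 had no match in their windows, and Kdelr3 had the 8-base UPR element only.

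Other genes of the secretory route, from lists of the same pathways, showed which neighbouring steps moved along. Over 91 such genes, 50 rose and 11 fell with a median log2 fold change of 0.14. Over all genes, 29.3% were called higher and 27.8% lower. Collagen folding and hydroxylation stood highest, with 8 of 11 genes higher, 1 lower and a median of 0.48. Serpinh1, the collagen chaperone HSP47, had 21569 and 21664 normalized counts in sham and 39578 and 40206 in PNX (log2 fold change 0.88, SE 0.018, adjusted p = 3.8e-47), and Fkbp10, a collagen prolyl isomerase, was at 1.10 (SE 0.035), while Leprel1, a prolyl 3-hydroxylase, was called lower at -0.28 (SE 0.090) but not with scaling to EC markers (-0.08). In FPKM, Serpinh1 was at 122 ± 0.424 in sham and 227 ± 2.13 in PNX. The oligosaccharyltransferase, which transfers the sugar chain, had 8 of 9 genes higher and none lower, with a median of 0.27, among them Ostc at 0.55, Ddost at 0.47 and the most counted subunit gene Rpn2 at 0.27. Other oxidative folding genes had 8 of 13 higher and 1 lower (median 0.19), with Prdx4, an ER peroxidase, at 0.73, Erp29 at 0.46, the cyclophilin gene Ppib at 0.38, and Tmx3 at -0.12 (0.09 with scaling to EC markers).

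The other lists had medians nearer 0, and their counts stand against 29.3% of all genes called higher and 27.8% called lower. Other translocon and signal peptidase genes had 8 of 16 higher and 2 lower (median 0.11), with Sec61g at 0.42 and Ssr4 at 0.40, while Sec62 and Sec63, which serve import after translation, were called lower at -0.18 and -0.11, values that turned to 0.02 and 0.10 with scaling to EC markers. Other ERAD genes had 6 of 12 higher and 1 lower (median 0.08), with Sel1l3, a gene related to Sel1l, at 1.08, the ATPase gene Vcp at 0.34 and Edem3 at -0.18 (0.03 with scaling to EC markers). COPII is the coat that carries cargo out of the ER. Its export list, which also held cargo receptors and transcription factors, had 9 of 19 genes higher and 4 lower (median 0.02). Creb3l1, a factor that drives collagen secretion, was at 1.12, the cargo adaptor Sec24d at 0.48 and the cargo receptor Surf4 at 0.37. Sec24b and Sec16a were at -0.16 each (0.04 and 0.05 with scaling to EC markers). The PERK arm and integrated stress response had 3 of 11 genes higher and 2 lower with a median of 0.00. These shares were no higher than the 29.3% and 27.8% of all genes. Scaling to EC markers gave 7 higher, 1 lower and a median of 0.21, the same as the median of all genes under that scaling. It called 8540 of all 16208 genes higher and 1797 lower. Eif2ak3, the gene of the sensor PERK, was at -0.08 and not called, and was called higher at 0.12 with scaling to EC markers. Nupr1 was at 0.59, Cebpb at 0.48 and Atf3, the most counted, at 0.10, while Ppp1r15a, the eIF2 alpha phosphatase subunit GADD34, fell by 0.27 and Atf5 was at -0.15, which turned to 0.05 and was not called with scaling to EC markers.

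Chaperones of the cytosol and mitochondria were also mostly higher. Of 23 genes, 19 rose and 2 fell, against 29.3% of all genes called higher and 27.8% called lower. Their median log2 fold change was 0.22, against 0.32 for the ER genes, and the difference between the lists was not tested. Hspe1, the mitochondrial HSP10, was at 0.46 (SE 0.037), Dnajb1 at 0.44 (SE 0.023) and the abundant Hsp90ab1 at 0.20 (SE 0.016). The heat-inducible Hspa1a and Hspa1b, near-identical copies that can share reads, were called lower at -0.15 and -0.18, and with scaling to EC markers they turned to 0.06 and 0.02, of which the first was called higher.

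**Figure D4:**
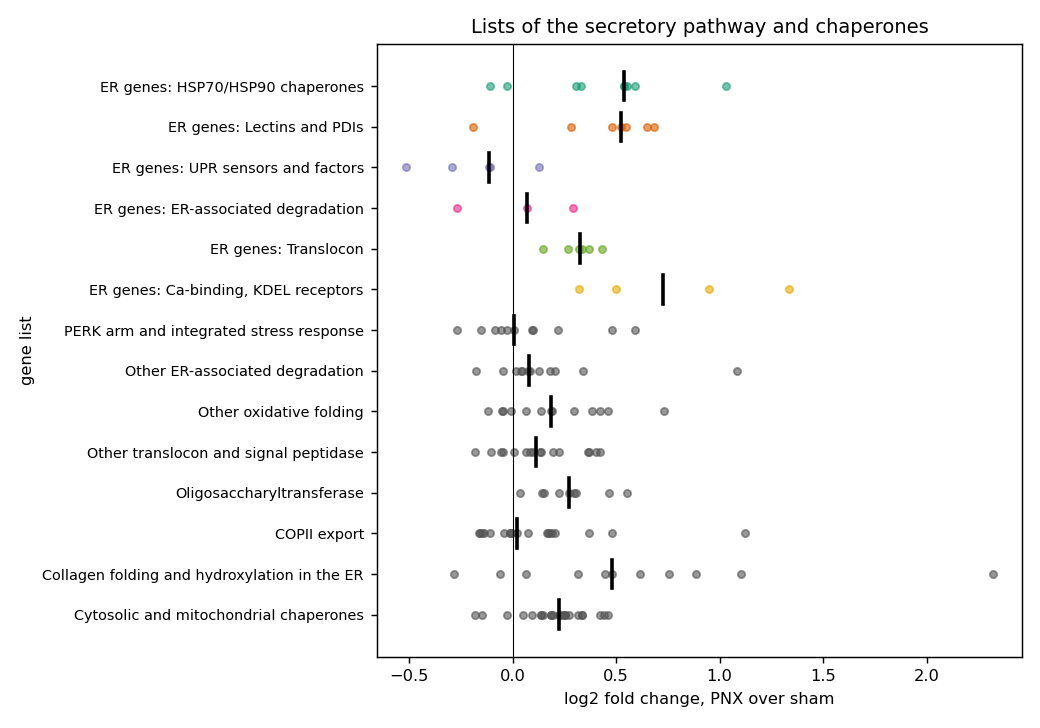
Log2 fold change (PNX over sham) of each tested gene of the ER groups (coloured) and of other secretory and chaperone lists (grey), with a black bar at each list's median. The medians run from -0.11 for the UPR regulators to 0.72 for the calcium-binding proteins and KDEL receptors, with collagen folding at 0.48.

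Most markers of fibroblasts, and those of macrophages and mesothelial cells, were higher along with the ER genes, while those of alveolar type 2 cells were lower. Over all genes, 29.3% were called higher and 27.8% lower. The summed normalized counts of 8 fibroblast markers were 69043 and 69613 in sham and 235261 and 236613 in PNX, with 7 of 8 genes higher and Pdgfra lower at -0.23, and Col1a1 and Lum were at 2.34 and 4.26 and the most counted, Col3a1, at 2.28. Those of 7 macrophage markers were 22337 and 22004 in sham and 51714 and 51914 in PNX, all 7 higher, with C1qb at 2.98, C1qc at 2.96 and Mrc1 at 0.70. Those of 6 mesothelial markers were 11529 and 11667 against 23941 and 24354, all 6 higher, with Wt1 at 2.68 and Msln at 1.97. No marker in these 3 lists was at 0 in sham, and Lum had 72 and 44 normalized counts there. In the fibroblast list, the collagen genes Col1a1, Col1a2 and Col3a1 held most of the counts in either group. The receptor genes Pdgfra and Pdgfrb were at -0.23 and 0.27. The 6 cell cycle genes went from 2839 and 2862 to 23962 and 23670, all 6 higher, with Cdk1 at 3.41, Ccnb1 at 3.40 and Mki67 at 2.91.

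The summed markers of plasma cells, whose ER is highly developed for antibody secretion, were 6931 and 7013 in sham and 7188 and 7577 in PNX. Sdc1 and Prdm1 held most of these counts, so the sum says little of the other markers. Of their 7 tested markers 3 rose and 1 fell. Derl3 was called higher at 0.94. Mzb1 was at -0.16 (0.05 with scaling to EC markers) and was called with neither scaling. Prdm1 was at 0.02 and not called, but was called higher at 0.22 with scaling to EC markers. Igj, the joining chain of antibodies, went from 70 and 46 normalized counts to 673 and 711, Fkbp11 was at 0.74, Pou2af1 fell by 0.80, the most counted marker Sdc1 was at -0.03 (0.18 with scaling to EC markers), and Tnfrsf17 had at most 3 counts in any library. The alveolar type 2 markers, of another secretory cell, were lower, from 318474 and 319226 to 205478 and 204277, all 6 of them down, with Sftpa1 at -0.71, Lamp3 at -0.66 and Sftpc at -0.62. The 5 pan-leukocyte markers were at 40033 and 40166 against 42891 and 43401, with 3 higher and 1 lower, led by Arhgdib at 0.33 and Cd53 at 0.31, with Laptm5, the most counted, at 0.16 and Coro1a at -0.14 (0.07 with scaling to EC markers). The 12 EC markers were at 530828 and 536853 in sham and 461650 and 464249 in PNX, with 10 lower and 1 higher, Tek at -0.50, Egfl7 at -0.43, Cdh5 at -0.22, Emcn at 0.11 and Pecam1 at -0.01 (0.20 with scaling to EC markers). The part of these cell types in the ER gene values was not tested.

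**Figure D5:**
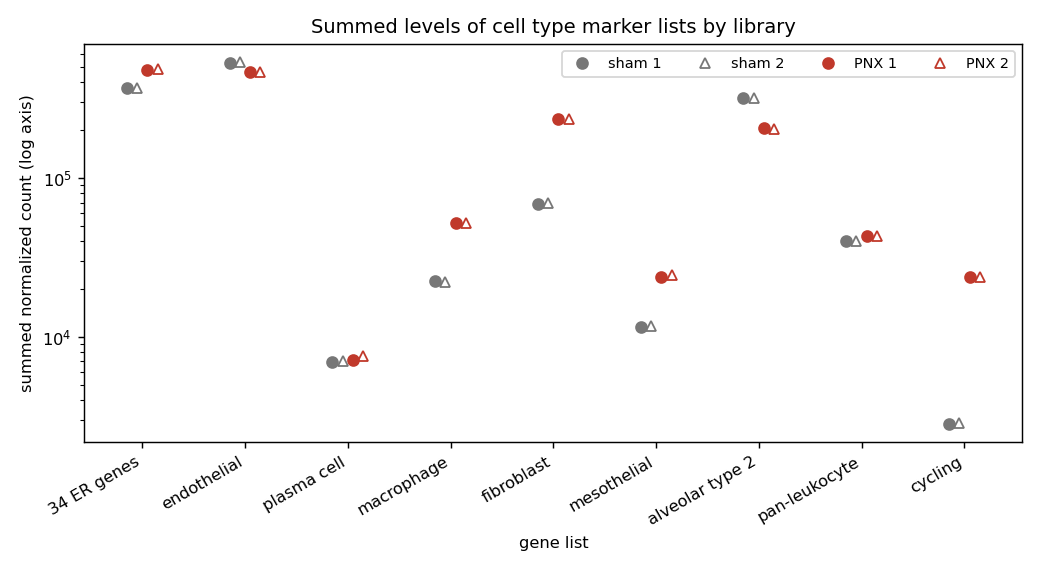
Summed normalized counts (log axis) of the 34 ER genes and of each marker list in the 4 libraries, grey for sham, red for PNX, circles for replicate 1 and triangles for replicate 2. The ER genes sit about 1.3-fold higher in PNX, the fibroblast, macrophage, mesothelial and cycling sums lie further above sham, and the EC and alveolar type 2 sums lie below.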

How the data were processed

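Per the labels and the study's methods, RNA of CD31-selected lung ECs was sequenced from 2 sham and 2 PNX pools. The submitters' processing notes name STAR and the build mm10, and the counting program, its strand setting and versions are not given in the sources used here. For each library the authors deposited unnormalized read counts for 33068 RefSeq transcripts, in which a read that overlaps several transcripts is counted for each. The authors also deposited FPKM, scaled by transcript length and by the total over all transcripts, and TPM, which was not used.

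Each symbol was represented by its most counted transcript (sum over 4 libraries). Genes that passed filterByExpr were tested in R 4.3.3 with edgeR 4.0.16 (TMM normalization, glmQLFit and glmQLFTest, no covariate, p adjusted by Benjamini-Hochberg over 16208 genes). A standard error is the log2 fold change divided by the square root of F. Libraries of a group, which the series' design describes as separate pools, differed by more than counting noise (mean chi-square per gene 1.74 in sham and 1.51 in PNX), so none was taken as a library deposited again, and this does not show that they were independent. A count of 3 corresponds to 0.0589 to 0.0725 CPM, and n = 2 limits every error estimate. The scripts were tested on simulated data.

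The ER genes and all lists were chosen with earlier results of these data known. All 34 ER genes are named. Of every other list, the 2 genes with the largest change in each direction, among those called and averaging 100 normalized counts or more, and the gene with the most counts are named, besides Pecam1, Cdh5, Ptprc and Xist as checks. Derl3, Syvn1, Calr4 and Alg12 were named after their values were seen, as ER genes with an ERSE, and so was Tnfrsf17, which was too low to be tested. So were Col1a2, Pdgfrb, Mzb1, Prdm1 and Eif2ak3, to show more of their lists. Gene coordinates and promoter windows came from RefSeq for GRCm38, and 28 of 34 symbols matched a window.

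Alternatives changed the scaling (DESeq2 size factors, library size alone, 12 EC markers), the low-count filter (none, or a mean of 50 counts), the tool (DESeq2 1.42.0, Wald test), the design (a block for replicate number), the gene value (sum of its transcripts) or left out a library.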

Additional observations from a re-analysis of the deposited data

How the results depend on the processing

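Of the ER genes, 25 higher and 7 lower calls and a median log2 fold change of 0.32 were also obtained with DESeq2 size factors. Scaling to 12 EC markers gave 29 higher, 2 lower and a median of 0.53, and turned the sign of Dnajb9 (0.097, adjusted p = 0.0149), Dnajc3 (0.177, adjusted p = 1.44e-08), Pdia5 (0.0129, adjusted p = 0.777), Xbp1 (0.0923, adjusted p = 0.000244) and Atf6 (0.0952, adjusted p = 0.00441). The same scaling moved the median of all genes by 0.21. DESeq2 called 24 higher and 5 lower, and over all genes it called 3497 higher and 3275 lower. Leaving out each library gave 24 to 25 higher, 6 to 7 lower, 2 to 2 past a log2 fold change of 1, and a median of 0.3279 to 0.3334. With 1 library left in a group, that library is assumed to vary like the other group. The replicate numbers name different mice, and the differences between replicates 1 and 2 correlated at 0.0304 across genes between sham and PNX, so the samples share only a number. With the replicate number as a block, 25 ER genes were higher and 7 lower, with a median of 0.32, and no call of an ER gene changed. With 2 pools a group and a spread that may be in part technical, the spread between animals cannot be told from these libraries. Depth was not a limit for these genes, which had at least 380 counts in each library.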

Other observations

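The spliced and the unspliced RefSeq transcripts of Xbp1 had identical counts in all 4 libraries, 13354, 11952, 11386 and 10106 reads in sham 1, sham 2, PNX 1 and PNX 2. They differ by a short stretch that IRE1 removes, so the deposited counts cannot show how much Xbp1 mRNA was spliced. Several transcripts were listed for 8 of the ER genes. For Dnajb11 the other transcripts held 87.4% and 79.4% of the counts of the one used, with a log2 ratio of 0.30 each against 0.31 for the one used.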
